A study of Mus musculus with 12 samples.

Results

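Pericytes and smooth muscle cells, together called mural cells, wrap the endothelial tube of small and large vessels. Pericytes share the basement membrane of capillaries and are recruited by platelet-derived growth factor (PDGF-B) that endothelial cells release, whereas smooth muscle cells surround larger vessels and carry a contractile apparatus of smooth muscle actin and myosin. No single gene marks every mural cell, so several are read side by side. The 10 genes described here, Rgs5, Cspg4, Notch3, Kcnj8, Abcc9, Mcam, Des, Acta2, Tagln and Myh11, were chosen by symbol as known markers of these cells, and they are 10 of the 38924 mouse genes listed for each tumor. In the text the first 6, which encode signaling, surface and channel proteins, are called pericyte-associated, and the last 4, which encode cytoskeletal proteins, are called contractile. These names follow common use: neither group is exclusive to its cell type.

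RNA had been sequenced from 12 PanNETs, pancreatic neuroendocrine tumors of the insulinoma type, from RIP1TAG2 mice on the C57Bl6 background. In this model a rat insulin promoter drives a viral oncogene in pancreatic beta cells. The tumors arise de novo in these transgenic mice, so tumor cells, vessels and mural cells belong to the same animal. The tumors comprised 4 from mice given saline as control, 4 from mice given sunitinib, an inhibitor of several kinases that include the VEGF and PDGF receptors, and 4 from mice given rapamycin, an mTOR inhibitor, together with sunitinib (R+S). All 12 came from mice treated for 4 days from 15.5 weeks of age. There was no group with rapamycin alone.

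The gene counts of a tumor summed to 31872342 at the lowest and 44215054 at the highest (median 38526164). Each tumor is named by its group and label number. All 4 control labels share 1 prefix, the sunitinib labels hold 2 prefixes and the R+S labels 3, each found in a single group. Whether a prefix stands for a mouse is not stated, so p-values treat the 12 tumors as independent and measure only the spread between them. Sunitinib tumor 6 stood apart: its log2 values correlated with those of the other sunitinib tumors at 0.872 to 0.895, against 0.957 to 0.978 among those others, and its summed level of 12 beta-cell markers was 2312 CPM (counts scaled to library size), against 31863 to 77367 CPM in the other 11 tumors. Pancreatic acinar markers, 28 digestive enzymes and related genes, summed to 41.7 to 146 CPM in control tumors, 13792 to 49300 CPM in sunitinib tumors and 3623 to 19799 CPM in R+S tumors. The part of acinar content in the results below was not tested.

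The promoters of the most abundant member of each group are shown because the contractile and the pericyte-associated genes are read apart in what follows. Serum response factor binds the CArG box and drives contractile genes in smooth muscle. RefSeq promoters, from 250 bases before the start of the gene to 50 bases from it, were held for 8 of the 10 genes. Those of Tagln and Myh11 were not. Sequences run 5′ to 3′ on the strand of the gene in GRCm38.p6, and capitals mark a CArG box with at most 1 C or G in its 6-base A/T core.
Acta2 (chr19:34255324-34255623, minus strand): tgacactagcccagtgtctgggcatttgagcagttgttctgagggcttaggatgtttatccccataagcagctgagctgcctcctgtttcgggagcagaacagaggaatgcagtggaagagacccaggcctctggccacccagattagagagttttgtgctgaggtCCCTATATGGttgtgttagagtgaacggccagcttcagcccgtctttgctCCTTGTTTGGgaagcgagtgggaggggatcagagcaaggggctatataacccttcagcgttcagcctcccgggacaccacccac
Rgs5 (chr1:169655251-169655550, plus strand): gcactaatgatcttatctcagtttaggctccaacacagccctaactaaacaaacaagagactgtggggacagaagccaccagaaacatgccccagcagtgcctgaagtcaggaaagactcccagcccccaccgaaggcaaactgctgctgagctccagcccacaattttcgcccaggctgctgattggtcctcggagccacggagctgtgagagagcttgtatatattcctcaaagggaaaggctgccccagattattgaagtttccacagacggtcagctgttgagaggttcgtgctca
The Acta2 promoter held 2 such boxes, CCCTATATGG from 84 to 75 bases before the start and CCTTGTTTGG from 34 to 25 bases before it. None was found in the promoters of Des or of the 6 pericyte-associated genes, and 9.98% of 32851 RefSeq promoters held at least 1. The strict box, with no C or G in the core, was in 1.63% of promoters and in 0 of the 8. TGGGAA, the core bound by RBPJ, through which Notch receptors act, was present on either strand in the promoters of Kcnj8, Abcc9 and Acta2 and in 25.6% of all promoters. In Acta2 it shared bases with the box nearer to the start. CATTCC, the core bound by TEAD factors, was present in Abcc9 and Acta2 and in 14.7% of all promoters. These matches describe the letters in the window and show no binding.

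In sunitinib-treated tumors, pericyte-associated genes were lower than in control tumors, and contractile genes did not pass the test. Rgs5, Notch3, Kcnj8 and Mcam fell, by 60.6% to 76.0%, and 0 of the 10 rose. The test was the quasi-likelihood F-test of edgeR over 16645 genes, with an adjusted p under 0.05 as the threshold. It called 4.48% of all tested genes in this comparison, and 2.55% as lower. All 6 pericyte-associated genes, including Cspg4 and Abcc9, which missed the threshold, were below every control tumor in every sunitinib tumor, whereas 10.9% of all genes had groups that did not overlap. Their median log2 fold change was -1.49, that of the 4 contractile genes 0.23 and that of all tested genes 0.03. DESeq2, used as an alternative, called all 6 as lower, and 4.41% of all genes as lower. In bulk RNA, fewer mural cells and less RNA per cell cannot be told apart.

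Rgs5, a regulator of G protein signaling that is abundant in pericytes, was the clearest of the 10. Its normalized level was 251.5, 312, 455 and 309.5 CPM in control tumors 1 to 4. In sunitinib tumors 5, 6, 8 and 12 it was 123, 114, 144 and 118 CPM, and in R+S tumors 4, 5, 7 and 10 it was 199, 209, 201 and 159.9 CPM. The 3 groups did not overlap, with control tumors highest and sunitinib tumors lowest. Rgs5 fell with sunitinib by 1.41 on the log2 scale (SE 0.17, adjusted p = 0.000532), which is 2.66-fold, and with R+S by 0.79 (SE 0.17, adjusted p = 0.0268).

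Kcnj8 and Abcc9 encode the pore and the sulfonylurea-receptor subunit of the vascular ATP-sensitive potassium channel. The genes are neighbors on chromosome 6, on the same strand, 16.2 kb apart. Kcnj8 was present at 2.70, 2.54, 3.12 and 3.16 CPM in control tumors, at 0.587, 0.83, 0.633 and 0.706 CPM in sunitinib tumors and at 1.64, 0.732, 0.653 and 0.916 CPM in R+S tumors. Every treated tumor was below every control tumor, and R+S tumor 4 was the highest of the treated. Kcnj8 had the largest fall of the 10 with sunitinib, by 2.06 on the log2 scale (SE 0.31, adjusted p = 0.00209), and fell by 1.55 with R+S (SE 0.30, adjusted p = 0.0158). It rests on 22 to 126 reads per tumor. Abcc9 was at 10.8, 11.1, 16.8 and 16.1 CPM in control tumors, at 3.37, 9.84, 4.93 and 1.73 CPM in sunitinib tumors and at 4.49, 6.99, 5.90 and 3.76 CPM in R+S tumors. Again no treated tumor reached the lowest control, but sunitinib tumor 6 came close to it, and the log2 fold changes of -1.46 (SE 0.44, adjusted p = 0.0956) and -1.37 (SE 0.44, adjusted p = 0.106) missed the threshold. Without sunitinib tumor 6 they were -2.03 (adjusted p = 0.00655) and -1.37 (adjusted p = 0.0225), and without sunitinib tumor 12 the adjusted p for R+S was also under the threshold.

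Mcam, an adhesion molecule of the immunoglobulin family also known as CD146, is present on both mural and endothelial cells. Its levels were 42.4, 59.9, 84.6 and 64.2 CPM in control tumors, 15.4, 16.6, 25.3 and 15.6 CPM in sunitinib tumors and 45.0, 36.2, 36.1 and 16.0 CPM in R+S tumors. It fell with sunitinib by 1.78 on the log2 scale (SE 0.31, adjusted p = 0.00557). R+S tumors overlapped with both other groups, with tumor 4 above the lowest control and tumor 10 at the sunitinib level, and the log2 fold change against control of -0.91 (SE 0.30, adjusted p = 0.119) missed the threshold.

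Notch3, the Notch receptor of vascular smooth muscle and pericytes, was at 19.1, 20.3, 32.0 and 34.7 CPM in control tumors, at 13.5, 6.08, 14.6 and 7.57 CPM in sunitinib tumors and at 20.1, 23.0, 25.4 and 21.5 CPM in R+S tumors. It fell with sunitinib by 1.35 on the log2 scale (SE 0.29, adjusted p = 0.0228), a call that was lost without control tumor 3, control tumor 4 or sunitinib tumor 12, at an adjusted p of at most 0.0784. In R+S tumors it lay within the range of the controls, with a log2 fold change of -0.24 and a 95% interval of -0.87 to 0.39. Cspg4, the NG2 proteoglycan of the pericyte surface, was at 9.03, 14.3, 15.2 and 11.0 CPM in control tumors, at 4.85, 2.40, 6.62 and 3.50 CPM in sunitinib tumors and at 11.1, 12.2, 12.2 and 3.04 CPM in R+S tumors. Its log2 fold change with sunitinib of -1.51 (SE 0.43, adjusted p = 0.0777) missed the threshold, and without R+S tumor 10, which enters the shared estimate of the spread, the adjusted p was 0.0191. Among the R+S tumors, number 10 stood alone at the sunitinib level. Glia also carry Cspg4, and 8 glial markers summed to 127 to 225 CPM in control tumors, 54.5 to 114 CPM in sunitinib tumors and 129 to 163 CPM in R+S tumors. Their part in the values of Cspg4 was not tested.

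**Figure D1:**
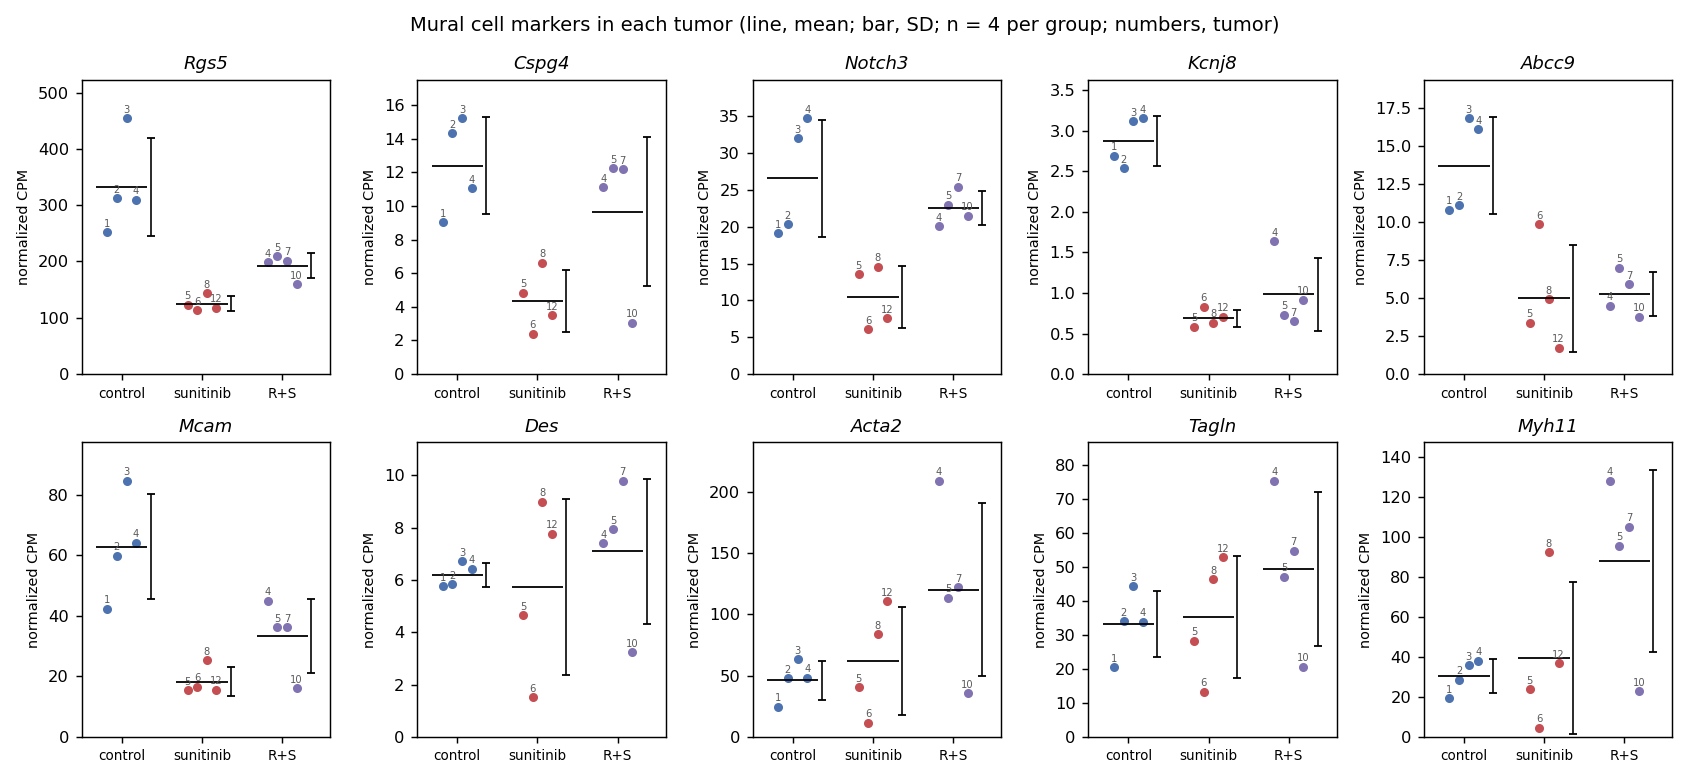
Normalized level in CPM (vertical axes from 0, linear) of the 10 mural cell markers in control, sunitinib and R+S tumors; points are tumors with their label numbers, lines are means and bars are SD (n = 4). The 6 pericyte-associated genes (first 6 panels) lie below every control in all 4 sunitinib tumors, whereas Des, Acta2, Tagln and Myh11 overlap between groups.

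No contractile gene passed the test. EdgeR called 0 of the 4 in any of the 3 comparisons. At an unadjusted p under 0.05 it counted 0 with sunitinib, 1 with R+S against control and 0 between the treatments, and DESeq2 called 0 in each, where it called 9.06%, 10.4% and 18.5% of all genes. Acta2, smooth muscle alpha-actin, was at 24.5, 48.0, 63.6 and 48.3 CPM in control tumors, at 40.6, 11.6, 83.9 and 111 CPM in sunitinib tumors and at 209, 114, 122 and 35.8 CPM in R+S tumors. Sunitinib tumor 6 and R+S tumor 10 were the lowest of their groups, and the other 3 R+S tumors exceeded every control. The log2 fold change was 0.42 with sunitinib (95% interval -0.93 to 1.77, adjusted p = 0.739) and 1.38 with R+S (0.01 to 2.75, adjusted p = 0.245). Myh11, the smooth muscle myosin heavy chain, was at 19.3, 28.6, 35.8 and 38.0 CPM in control tumors, at 23.8, 4.48, 92.4 and 36.9 CPM in sunitinib tumors and at 128, 95.5, 105 and 22.7 CPM in R+S tumors. Its log2 fold change was 0.37 with sunitinib (-1.16 to 1.90, adjusted p = 0.796) and 1.53 with R+S (-0.03 to 3.09, adjusted p = 0.256). The interval of Myh11 with sunitinib holds both a fall and a rise of more than 1.

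Tagln, the actin-binding protein SM22, was at 20.5, 34.1, 44.4 and 33.9 CPM in control tumors, at 28.3, 13.2, 46.4 and 52.8 CPM in sunitinib tumors and at 75.4, 47.1, 54.8 and 20.6 CPM in R+S tumors. Its log2 fold changes were 0.08 (-0.88 to 1.05) and 0.58 (-0.39 to 1.54). Des, the intermediate filament of muscle, was the most even of the 10 in control tumors, at 5.75, 5.85, 6.72 and 6.43 CPM, and spread widely in sunitinib tumors, at 4.64, 1.52, 8.997 and 7.76 CPM, and in R+S tumors, at 7.41, 7.93, 9.79 and 3.24 CPM. Its log2 fold changes were -0.11 (-1.12 to 0.90) and 0.20 (-0.81 to 1.21). Des is also a skeletal muscle gene, and 8 markers of skeletal muscle summed to 3.43 to 8.12 CPM over the 12 tumors. Sunitinib tumor 6 and R+S tumor 10 were the lowest of their groups for all 4 contractile genes, and control tumor 1 was the lowest control for 9 of the 10 markers. Without sunitinib tumor 6 the log2 fold changes with sunitinib were 0.77 for Acta2, 0.75 for Myh11, 0.36 for Tagln and 0.21 for Des, with adjusted p between 0.428 and 0.759.

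Against control, R+S tumors had 2 of the 10 genes lower, Rgs5 and Kcnj8, and 0 higher. The percentage of all tested genes called in this comparison was 4.16%, or 2.61% as lower. For 3 of the 10, Rgs5, Kcnj8 and Abcc9, no R+S tumor reached the lowest control, where 23.5% of all genes did not overlap. The median log2 fold change was -0.85 for the pericyte-associated genes and 0.98 for the contractile genes, against 0.01 for all genes. The calls for Rgs5 and Kcnj8 depended on single tumors: that for Rgs5 was lost in 7 of 12 fits that left out 1 tumor (adjusted p up to 0.0769), namely control tumors 2, 3 and 4 and each of the R+S tumors, and that for Kcnj8 was lost without control tumor 3, R+S tumor 5 or R+S tumor 7 (up to 0.0664).

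R+S and sunitinib tumors were also compared directly, which asks what rapamycin added to sunitinib. All 10 log2 fold changes were positive, with a median of 0.75 against -0.02 for all genes, and 2 passed the test: Notch3 was higher in R+S tumors by 1.11 (SE 0.29, adjusted p = 0.0448) and Rgs5 by 0.62 (SE 0.17, adjusted p = 0.0493). Both groups did not overlap for these 2 genes. Of all tested genes, 7.21% were called here, 2.63% as higher, and 18.6% did not overlap. Both adjusted p values sit just under the threshold, and each call was kept in only 2 of 12 fits that left out 1 tumor, with adjusted p up to 0.132 for Rgs5 and 0.116 for Notch3. Cspg4 differed by 1.149 (95% interval 0.22 to 2.08, adjusted p = 0.102), Mcam by 0.87 (0.21 to 1.54, adjusted p = 0.0878), Kcnj8 by 0.51 (-0.15 to 1.18) and Abcc9 by 0.09 (-0.86 to 1.04). The comparisons with control share the 4 control tumors, so their values are not independent of each other.

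**Figure D2:**
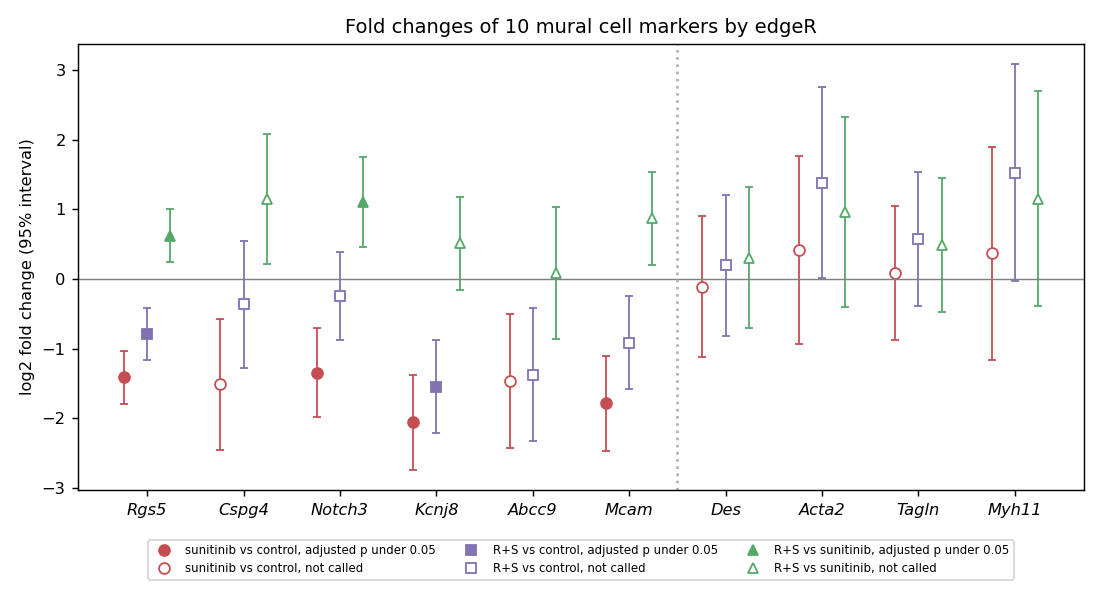
Log2 fold changes (vertical axis) of the 10 genes by edgeR for sunitinib against control (circles), R+S against control (squares) and R+S against sunitinib (triangles), with 95% intervals; filled symbols have an adjusted p under 0.05. The 6 genes left of the dotted line are below 0 against control in both treatments. The 4 contractile genes have intervals wider than 1.9 in every comparison. With sunitinib, Cspg4 (-2.45 to -0.57) and Abcc9 (-2.42 to -0.50) have intervals about as wide as Tagln (-0.88 to 1.05).

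When tumors with 1 label prefix were summed, which leaves 1 control library, 2 sunitinib libraries and 3 R+S libraries, edgeR called 0 of the 10 genes in each comparison. It called hardly any gene at all in that setting, 0.00542% of 18460 with sunitinib, 0% with R+S against control and 0.00542% between the treatments, so the count says nothing particular about the markers. At an unadjusted p under 0.05 it counted 5 of the 10 with sunitinib and 2 in each of the others. The log2 fold changes with sunitinib were -1.43 for Rgs5, -2.05 for Kcnj8, -1.84 for Mcam and -1.46 for Notch3, with adjusted p between 0.106 and 0.526. This alternative was chosen after the data had been seen, and it takes the lone control library to vary like the treated ones.

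Per kilobase of exon, the order of the 10 genes differed between groups. In control tumors Rgs5 led at 73.0 ± 19.0 CPM per kb (SD, n = 4), above the range of Acta2 at 20.98 ± 7.34, which overlapped with Mcam at 18.7 ± 5.18 and Tagln at 16.7 ± 4.93. Myh11 and Notch3 followed at 4.01 and 3.28 with overlapping ranges, and Des, Abcc9, Kcnj8 and Cspg4 lay between 1.65 and 1.04. In sunitinib tumors the means of Acta2 (28.1 ± 20.1) and Rgs5 (27.4 ± 2.90) were side by side and did not differ beyond their spread. In R+S tumors Acta2 was at 54.7 ± 32.3 and Rgs5 at 42.3 ± 4.86, again with overlapping ranges. Kcnj8 had the lowest mean of the 10 in both treated groups, at 0.270 and 0.386 CPM per kb, with a range that overlapped with that of Cspg4 in sunitinib tumors and of Abcc9 in R+S tumors.

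Ratios within a tumor do not depend on its total. The pairs were chosen after values had been seen, and 12 tests were made, 4 ratios in 3 comparisons, by two-sided exact permutation of 4 tumors against 4, whose smallest p is 0.0286. Rgs5 was set against Pecam1, which marks endothelium. The ratio of their CPM was 3.84, 3.98, 4.23 and 3.51 in control tumors, 9.52, 8.25, 7.27 and 10.7 in sunitinib tumors and 6.43, 7.44, 8.17 and 5.84 in R+S tumors. Every treated tumor exceeded every control, with a difference in log2 ratio of 1.19 for sunitinib and 0.83 for R+S (exact permutation p = 0.0286 each, adjusted p = 0.0686, which misses the threshold). Pecam1 itself fell by 2.56 with sunitinib (adjusted p = 2.38e-05) and by 1.61 with R+S (adjusted p = 0.000775). Of 15 endothelial markers, 13 were lower with sunitinib and 13 with R+S, against 2.55% and 2.61% of all genes. Their median log2 fold changes were -2.82 and -1.84. Esam, at -0.93 and -0.79, and Vwf, at -0.12 and 0.66, did not pass with either treatment. DESeq2 called 13 lower with each treatment and 1 higher with R+S. No ratio of Rgs5 to another endothelial marker was taken. The summed level of the 15 markers was 689 to 901 CPM in control tumors, 86.7 to 131 CPM in sunitinib tumors and 168 to 218 CPM in R+S tumors.

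The ratio of Rgs5 to Acta2 was 10.3, 6.51, 7.15 and 6.41 in control tumors, 3.04, 9.84, 1.71 and 1.06 in sunitinib tumors and 0.950, 1.85, 1.65 and 4.46 in R+S tumors. R+S tumors were all below the controls, by 1.97 in log2 ratio (exact permutation p = 0.0286, adjusted p = 0.0686), whereas sunitinib tumor 6 lay among the controls and the difference of -1.45 had an exact permutation p of 0.114. Kcnj11 and Abcc8, the channel subunits of beta cells, are the close relatives of Kcnj8 and Abcc9, and neither passed the test with sunitinib (log2 fold changes of -0.48, adjusted p = 0.278, and -0.21, adjusted p = 0.763). The log2 ratio of Kcnj8 to Kcnj11 was lower by 1.56 with sunitinib and by 1.34 with R+S, with no overlap (exact permutation p = 0.0286, adjusted p = 0.0686). For Abcc9 to Abcc8 the differences were -1.38 (exact permutation p = 0.143) and -1.29 (p = 0.0857).

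**Figure D3:**
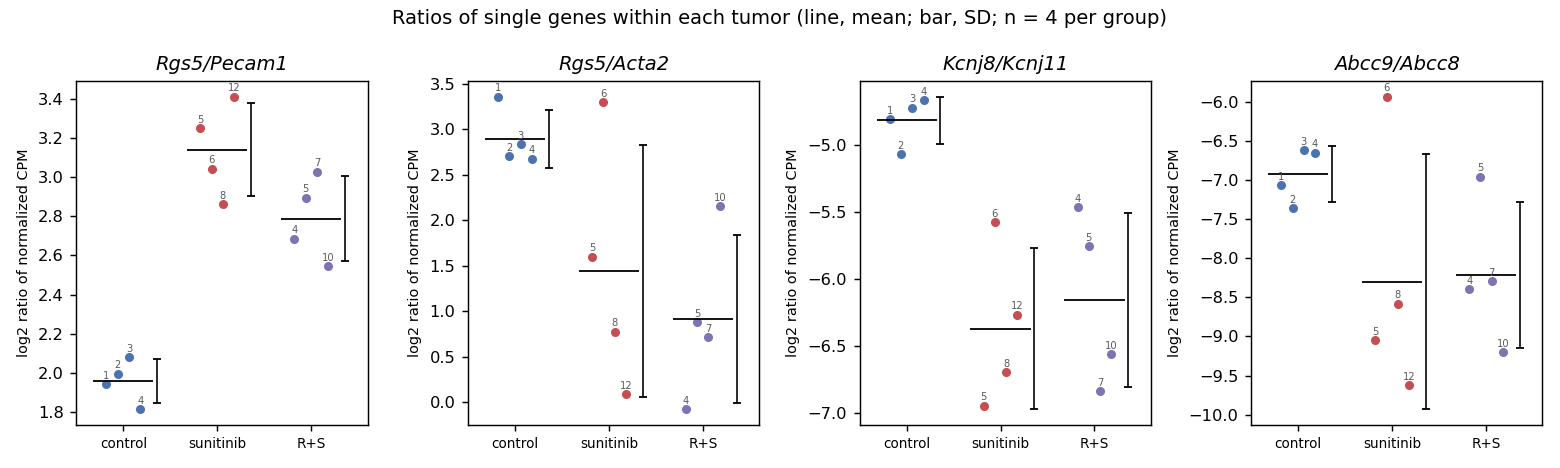
Log2 ratio of the CPM of 2 genes within each tumor (vertical axes, which do not start at 0) for 4 pairs of genes; points are tumors with their label numbers, lines are means and bars are SD (n = 4). Rgs5 to Pecam1 is higher in all treated tumors than in the controls, and Kcnj8 to Kcnj11 is lower; sunitinib tumor 6 lies among the controls for Rgs5 to Acta2 and above them for Abcc9 to Abcc8.

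Other genes known for pericytes gave a mixed picture. Of 28 listed, 26 were tested. EdgeR called 23.1% of these with sunitinib, against 4.48% of all genes (2.55% as lower). Of the 26, 5 fell, 1 rose and 20 did not pass, with a median log2 fold change of -0.61. Those that fell were Art3, by 2.22 (adjusted p = 0.00259), S1pr3, a receptor for sphingosine 1-phosphate, by 1.71 (0.0258), Pdgfrb, the PDGF-B receptor on mural cells and a target of sunitinib, by 1.19 (0.0180), Foxs1 by 1.08 (0.0401) and Gjc1, a gap junction protein, by 1.06 (0.0469). Anpep, an aminopeptidase that epithelial cells also carry, rose by 1.36 (0.00625). With R+S 2 fell, Art3 by 1.47 (0.0338) and Cd248 by 1.11 (0.0341), and Pdgfrb at -0.63 (0.181) missed the threshold. Those 2 are 7.69% of the 26, against 4.16% of all genes called (2.61% as lower). Enpep, by 1.64 (0.0277), and S1pr3, by 1.53 (0.0385), were higher in R+S than in sunitinib tumors. These 2 are 7.69% of the 26, near the 7.21% of all genes called between the treatments (2.63% as higher). Rgs4, Cox4i2 and Lamc3 had positive log2 fold changes over 2 with sunitinib that did not pass the test and that rested on sunitinib tumor 6. In that tumor Cox4i2 was at 97.2 CPM, Lamc3 at 8.15 CPM and Rgs4 at 605 CPM. In the other 3 sunitinib tumors Cox4i2 was at 0.434 to 1.12 CPM, against 0.648 to 1.60 CPM in control tumors, Lamc3 at 0.128 to 0.281 CPM, against 0.132 to 1.43 CPM, and Rgs4 at 35.2 to 97.3 CPM, against 22.7 to 61.2 CPM, so that the groups overlapped for each. In R+S tumors Rgs4 was at 60.3 to 294 CPM. Its log2 fold change against control was 1.98 (adjusted p = 0.220), against -0.84 for Cox4i2 (0.785) and -0.99 for Lamc3 (0.719). None of these passed. Foxs1, Gjc1, Rgs4 and Lamc3 are named after their values were seen.

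Of 29 other genes of the contractile apparatus, edgeR called 0 with sunitinib. There were 7 at an unadjusted p under 0.05, and DESeq2 called 2, where it called 9.06% of all genes. With R+S against control 1 rose, Nexn, an actin-binding protein, by 1.76 (adjusted p = 0.0372). That is 3.45% of the 29, under the 4.16% of all genes called. Cnn1, calponin, at 2.08 (0.155), Pln, phospholamban, at 2.14 (0.159) and Mylk, myosin light chain kinase, at 0.99 (0.148) did not pass. The median log2 fold change of the 29 was 0.08 with sunitinib and 0.54 with R+S, against 0.03 and 0.01 for all genes. With R+S 22 of 29 were positive. These signs are not independent: Myl9, Jph2 and Lmod1 correlated with the 4 contractile markers at 0.98, 0.97 and 0.97 across tumors. Filip1l was higher in R+S than in sunitinib tumors by 1.12 (0.0368). It was the only one of the 29 called between the treatments, 3.45% against 7.21% of all genes. Fibroblasts also carry some of the contractile genes. Of 14 fibroblast markers edgeR called 0 with either treatment against control, with 1 and 5 at an unadjusted p under 0.05. DESeq2 called 0 with sunitinib and 4, all lower, with R+S, against 9.06% and 10.4% of all genes.

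**Figure D4:**
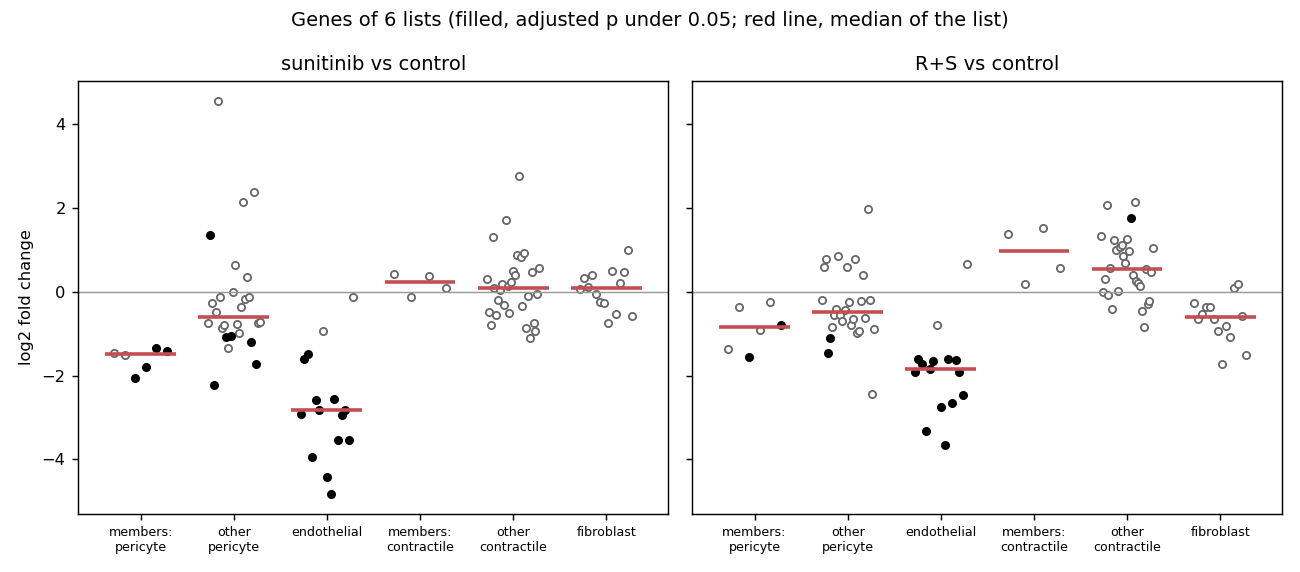
Log2 fold changes against control (vertical axis) with sunitinib (left) and R+S (right) for the genes of 6 lists; each point is a gene, filled points have an adjusted p under 0.05 and red lines are medians. The endothelial list has medians of -2.82 and -1.84, the pericyte-associated markers -1.49 and -0.85, and the contractile markers 0.23 and 0.98.

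Ligands and regulators of mural cells were followed in a list of 23 genes, of which 4 fell and 1 rose with sunitinib. Pdgfb, the ligand that recruits pericytes and comes mainly from endothelium, fell by 1.56 (adjusted p = 0.000751) with sunitinib and by 1.08 (0.0111) with R+S. Tbx2, a T-box factor, fell by 2.03 (0.00261) and by 1.55 (0.0173). S1pr1, a sphingosine 1-phosphate receptor of endothelium, fell by 1.81 (0.00319) with sunitinib and was higher in R+S than in sunitinib tumors by 1.08 (0.0440). It was the only one of the 23 called between the treatments, 4.35% against 7.21% of all genes. Tgfbr2, a receptor for transforming growth factor beta, fell by 1.202 (0.00449) with sunitinib. Edn1, the precursor of the vasoconstrictor endothelin, rose by 1.43 (0.0452) with sunitinib and by 1.74 (0.0198) with R+S, from a low level of 0.616 CPM in control tumors. Myocd, the coactivator of serum response factor in smooth muscle, had a mean level of 0.326, 0.420 and 1.72 CPM in control, sunitinib and R+S tumors, and its log2 fold change with R+S of 2.40 had an adjusted p of 0.0514. Among 20 tested relatives of the 10 markers, Notch4, an endothelial Notch receptor, was the only one that edgeR called in either comparison with control, lower by 2.75 with sunitinib (1.10e-05) and by 2.48 with R+S (6.23e-05). Notch4 alone is 5% of the 20, near the 4.48% and 4.16% of all genes called. DESeq2 called 2 of the 20 with sunitinib and 1 with R+S, against 9.06% and 10.4% of all genes. Between R+S and sunitinib edgeR called 0, with 6 at an unadjusted p under 0.05, and DESeq2 called 3, all lower. There edgeR called 7.21% of all genes and DESeq2 18.5%. Actb, cytoplasmic beta-actin, differed by 0.16 with sunitinib (0.630).

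Across the 12 tumors the 4 contractile genes varied together. Pearson correlations of log2 CPM between them were 0.84 to 0.98 as measured and 0.89 to 0.99 after the mean of each group had been subtracted, so that they varied together within groups as well. Between pericyte-associated genes they were 0.51 to 0.95 as measured and -0.26 to 0.86 after subtraction. Pairs that join a pericyte-associated and a contractile gene had -0.37 to 0.68 as measured and -0.41 to 0.83 after subtraction. The median of these mixed pairs after subtraction was 0.53, against 0.30 for pairs of pericyte-associated genes. Kcnj8 and Abcc9 had a correlation of 0.75 as measured and of 0.03 within groups. The genes were measured in the same libraries and share the treatment contrast, so these values are a description. Of 13014 other genes, those most like the mean of the 10 markers were Gja4 (r = 0.94), Cav1 (0.93), Gjc1 (0.93), Hey2 (0.93), Gprc5b (0.93), Cavin1 (0.92), S1pr3 (0.92), Rasl12 (0.91), Kctd12b (0.90) and Map3k7cl (0.90). After group means had been subtracted, Myom1, Gprc5b (0.95 each) and Map3k7cl (0.94) were the most like them. As measured, the pericyte-associated genes alone were most like Mef2c (0.98), Erg (0.97) and Cdh5 (0.97), of which the last 2 are endothelial markers. After subtraction they were most like Palld (0.95), Itga8 (0.91) and Xlr3a (0.90), and neither Erg nor Cdh5 was among the first 10. Mef2c stayed among these at rank 8 (0.86). Calcrl, lower by 3.03 on the log2 scale with sunitinib, was at rank 10 (0.85). The contractile genes alone were most like Myl9 (0.98), Jph2 (0.97) and Lmod1 (0.97) as measured. After subtraction they were most like Myl9 (0.99), Cnn1 (0.98) and Kctd12b (0.98).

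**Figure D5:**
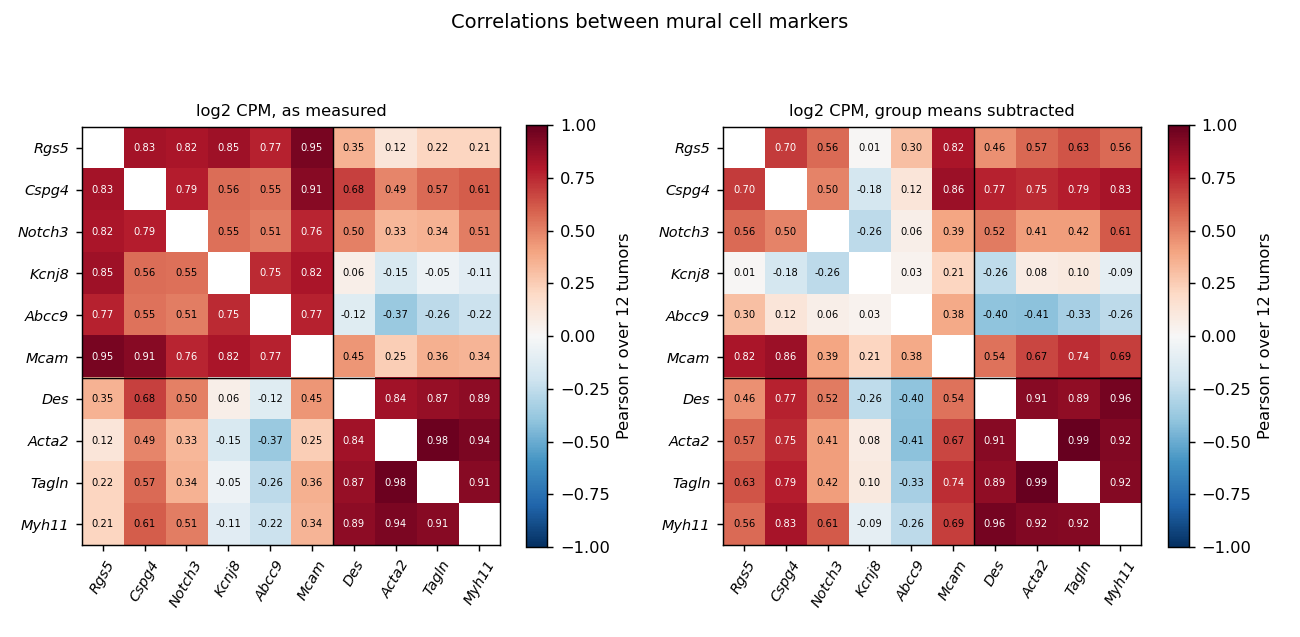
Pearson correlations of log2 CPM between the 10 genes over 12 tumors, as measured (left) and after subtraction of group means (right); the color scale runs from -1 to 1 and black lines part the 6 pericyte-associated from the 4 contractile genes. The contractile block is 0.84 to 0.98 on the left and 0.89 to 0.99 on the right. Pairs of pericyte-associated genes range from -0.26 to 0.86 on the right, and pairs between the blocks from -0.41 to 0.83.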

How the data were processed

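The authors deposited raw read counts per gene for each tumor. Libraries were stranded and poly(A)-selected. The submitters' processing notes name cutadapt 1.2.1, TopHat2 2.0.9, HTSeq 0.5.4p3 and GRCm38, and the annotation release is not given in the sources used here. The 5 summary lines of each table were left out. Exon lengths are unions from GENCODE M21.

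Counts were normalized by TMM and tested with edgeR 4.0.16 (R 4.3.3) in 1 fit of 12 tumors, after filterByExpr (minimum count 10, minimum total 15). All 10 members were among the 16645 genes kept. P-values were adjusted by Benjamini-Hochberg over all genes kept. SE is the absolute log2 fold change over the square root of F, and intervals use the degrees of freedom of the test. CPM are counts divided by the TMM-scaled library total, and log2 CPM used a prior count of 2. The fit was tested on simulated data. DESeq2 1.42.0 was an alternative.

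The members and gene lists were chosen with earlier results of these data known. Named are all members, 6 further genes in any case, and per list and comparison up to 4 genes with the smallest p; of the cell type lists, at most 3. Likeness used genes with a mean log2 CPM of at least 1. Notch3, Abcc9, Mcam, Des and Tagln overlap genes on the opposite strand. At most 0.614% of a member's 50-base words occur in another gene. Counting errors treat reads as independent.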

Additional observations from a re-analysis of the deposited data

Results flagged for a closer look

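In 30 groups of 4 tumors, 1 per marker and treatment, the highest and lowest values were compared with the rest of the group by Dixon's criterion at the 95% level, which chance passes in about 1 of 20 groups. It marked 2. Cspg4 in R+S tumor 10 was 3.04 CPM, far below the 11.1 to 12.2 CPM of the other R+S tumors, with a gap of 0.875 of the range. Mcam in sunitinib tumor 8 was 25.3 CPM, above the 15.4 to 16.6 CPM of the other sunitinib tumors, with a gap of 0.882 of the range, and still below every control.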

How the results depend on the processing

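The falls of Rgs5, Kcnj8 and Mcam with sunitinib passed the threshold under all 8 other settings of tool, scaling, filter or samples listed here (DESeq2, 4 scalings, no filter, 8 tumors, summed prefixes in the treated groups) and in all 12 fits without 1 tumor. The other calls were less stable. With DESeq2, 1477, 1688 and 3008 genes were called for sunitinib against control, R+S against control and R+S against sunitinib, and 4 members in each of the last 2. With RLE factors, upper-quartile factors or totals without acinar and beta-cell markers, 1 member was called between R+S and sunitinib. With no filter, 501 genes and 0 members were called there (4 members at an unadjusted p under 0.05). With only the 8 tumors compared, 380, 2557 and 3 genes were called, and 0 members between R+S and sunitinib (4 unadjusted). With tumors of 1 prefix summed in the treated groups, 1 member was called for R+S against control and 0 for R+S against sunitinib (2 unadjusted). With prefixes summed in all groups, added after the data had been seen, 1, 0 and 1 genes and 0, 0 and 0 members were called. Leaving out 1 tumor gave 440 to 902, 292 to 1627 and 0 to 2861 genes, and 3 to 5, 0 to 3 and 0 to 1 members. The causes were not tested. Signs turned only for log2 fold changes that had missed the threshold. Des with sunitinib was 0.0647 with prefixes summed in the treated groups and 0.0596 with all summed. Without 1 tumor it ranged from -0.42 to 0.21, Acta2 from -0.0227 to 0.77, Tagln from -0.18 to 0.36 and Myh11 from -0.49 to 0.75. Between R+S and sunitinib, Abcc9 ranged from -0.19 to 0.66 and Des from -0.00785 to 0.61. No paired analysis was possible because the groups share at most 1 replicate number. Label prefix and treatment cannot be told apart.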
